A study of Mus musculus with 12 samples.

Results

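Imprinted genes are genes of which only the copy inherited from the father, or only the copy from the mother, is expressed in some or all tissues. The 38 described here are genes known to be imprinted in the mouse. Membership rests on that knowledge and on no measured value, but the list was drawn up with earlier results of these data known. They were among 53801 genes counted in the embryonic maxillary prominence, the paired facial swelling that forms the upper jaw, cheek and much of the palate. Tissue came from wild-type C57BL/6 mouse embryos at embryonic days 10.5 (E10.5), 11.5 (E11.5), 12.5 (E12.5) and 14.5 (E14.5), and per the labels the mice used were 8 to 12 weeks old. Each stage has 3 bulk RNA-seq libraries. The labels name no genetic change and no agent, so the groups are set by age. Per the labels, RNA was extracted from the prominences of 7 littermates, so each library is a pool of embryos and of all cell types in the dissected tissue. Of the 38 genes, 37 passed the filter on low counts and were tested, against 18365 genes tested in all. Rtl1 was the exception and is listed at 0 in all 12 libraries. Coordinates are those of build mm10.

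Imprinting is set in the germ line as DNA methylation on 1 parental copy of a control region, which then governs a cluster of neighbouring genes on that chromosome. Each cluster tends to hold protein-coding genes expressed from the paternal copy together with long noncoding RNAs or growth-restraining genes expressed from the maternal copy, or the reverse. Many of these genes act on growth before birth: the growth factor Igf2 and the regulator Plagl1 promote it, while the receptor Igf2r and the adaptor Grb10 restrain it. The counts come from a single inbred strain and carry no parental allele, so the levels below are sums of both copies and say nothing of whether a gene was imprinted in this tissue. For orientation, 20 of the genes were grouped as paternally expressed, 12 as maternally expressed, and 6 as dependent on tissue or transcript. The grouping was not made for this tissue, and a gene of any group may be expressed from both copies here.

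Promoters of 6 genes that carry the main patterns are shown, in windows that run from 250 bases before to 50 bases after a transcription start (RefSeq, GRCm38.p6). Capitals mark TGCCGC or its reverse complement GCGGCA, the hexamer that the imprint-protecting zinc finger protein ZFP57 is known to recognise when it is methylated.
Peg3 promoter, chr7:6730370-6730669, minus strand, 13 CpG: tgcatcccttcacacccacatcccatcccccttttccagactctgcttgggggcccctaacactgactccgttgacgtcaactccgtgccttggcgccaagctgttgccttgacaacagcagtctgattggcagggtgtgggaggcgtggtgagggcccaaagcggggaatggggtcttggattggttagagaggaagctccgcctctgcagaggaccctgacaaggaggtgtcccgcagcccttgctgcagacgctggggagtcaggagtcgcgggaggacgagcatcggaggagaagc
Mest promoter, chr6:30737800-30738099, plus strand, 17 CpG: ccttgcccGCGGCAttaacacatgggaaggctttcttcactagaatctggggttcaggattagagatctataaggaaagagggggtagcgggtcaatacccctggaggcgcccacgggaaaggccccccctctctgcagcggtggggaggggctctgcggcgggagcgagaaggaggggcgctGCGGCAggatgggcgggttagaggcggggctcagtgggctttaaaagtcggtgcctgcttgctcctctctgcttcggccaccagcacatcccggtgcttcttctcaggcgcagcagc
Zdbf2 promoter, chr1:63200108-63200407, plus strand, 15 CpG: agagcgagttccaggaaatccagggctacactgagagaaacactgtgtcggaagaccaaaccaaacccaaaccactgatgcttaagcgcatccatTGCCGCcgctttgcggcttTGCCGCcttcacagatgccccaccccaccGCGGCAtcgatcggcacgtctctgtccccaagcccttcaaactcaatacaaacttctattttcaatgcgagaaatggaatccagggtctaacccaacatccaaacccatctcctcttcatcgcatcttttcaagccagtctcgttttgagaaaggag
Plagl1 promoter, chr10:13090582-13090881, plus strand, 26 CpG: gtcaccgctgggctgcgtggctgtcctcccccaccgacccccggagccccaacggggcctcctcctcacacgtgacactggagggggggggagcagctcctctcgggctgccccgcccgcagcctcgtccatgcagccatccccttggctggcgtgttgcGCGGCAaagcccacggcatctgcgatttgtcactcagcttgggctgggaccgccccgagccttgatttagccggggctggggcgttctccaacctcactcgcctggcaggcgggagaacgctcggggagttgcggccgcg
Meg3 promoter, chr12:109540746-109541045, plus strand, 13 CpG: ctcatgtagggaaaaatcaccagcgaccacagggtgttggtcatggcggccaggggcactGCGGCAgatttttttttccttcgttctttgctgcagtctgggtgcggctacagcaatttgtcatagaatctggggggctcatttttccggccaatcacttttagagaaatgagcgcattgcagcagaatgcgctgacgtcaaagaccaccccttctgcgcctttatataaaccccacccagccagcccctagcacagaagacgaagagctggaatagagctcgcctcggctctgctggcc
Nnat promoter, chr2:157559828-157560127, plus strand, 17 CpG: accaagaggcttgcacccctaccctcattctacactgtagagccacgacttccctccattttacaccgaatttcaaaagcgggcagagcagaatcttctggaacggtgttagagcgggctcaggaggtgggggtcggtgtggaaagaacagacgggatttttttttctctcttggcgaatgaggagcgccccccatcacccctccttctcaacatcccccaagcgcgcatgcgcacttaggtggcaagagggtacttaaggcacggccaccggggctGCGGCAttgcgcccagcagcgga

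The Peg3 window also covers the start of Usp29, which lies 147 bases away on the opposite strand, and it holds no copy of the hexamer. Mest had 2 copies in the window shown, the upstream Zdbf2 start had 3, and Plagl1, Meg3 and Nnat had 1 each. Mest, Zdbf2 and Meg3 each have another RefSeq start whose window holds 0 copies, so for them the window with the hexamer is the one shown. RefSeq windows were found for 31 of the 38 genes, 47 windows in all, and 11 of these windows (23.4%) from 10 genes held the hexamer on either strand, against 11.6% of all 32851 windows of the same length. The 11 include a second Mest window that lies a few bases away and holds the same 2 copies. The windows of imprinted genes were rich in CpG, since 37 of 47 had more than the median of 7 CpG. Among windows above that median, 27.0% of those of imprinted genes and 21.0% of all windows held the hexamer. A match is a description of the letters and not a site shown to be bound.

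Several of these genes are hosts of microRNAs, and 56 mature microRNAs lie within the spans of 8 of them, 26 of these within Mirg. The poly-T selected libraries do not measure mature microRNAs, so only the host transcripts were counted. Those shown come from hosts whose levels changed, or lie opposite Rtl1, the only gene at 0. Capitals mark the seed, bases 2 to 8, which pairs with target transcripts, and sequences are those of RefSeq. The first lies in H19, the second in Igf2, the third in Mest and the fourth in Rian. The next 5 lie in Mirg, and the last 3 lie on the strand opposite to Rtl1.
mmu-miR-675-5p: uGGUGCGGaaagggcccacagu
mmu-miR-483-3p: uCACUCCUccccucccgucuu
mmu-miR-335-5p: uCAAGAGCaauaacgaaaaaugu
mmu-miR-370-3p: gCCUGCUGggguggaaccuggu
mmu-miR-134-5p: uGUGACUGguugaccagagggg
mmu-miR-154-3p: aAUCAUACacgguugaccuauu
mmu-miR-410-3p: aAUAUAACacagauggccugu
mmu-miR-453: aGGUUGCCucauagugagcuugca
mmu-miR-496a-5p: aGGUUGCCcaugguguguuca
mmu-miR-127-3p: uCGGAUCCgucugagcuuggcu
mmu-miR-431-5p: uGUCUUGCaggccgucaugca
mmu-miR-433-3p: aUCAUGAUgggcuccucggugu

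Among all 56, miR-453 and miR-496a-5p were the only pair with the same seed.

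Libraries held 28294837 to 33941430 counts in genes. Levels are given as CPM, that is counts per 1000000 of the library size after scaling by TMM (trimmed mean of M-values), in the order of replicates 1, 2 and 3 at each stage. Comparisons are edgeR quasi-likelihood tests fitted to all 12 libraries with 1 mean per stage. Log2 fold changes are the later stage over the earlier one, with their standard errors. Adjusted p-values use the Benjamini-Hochberg method over all 18365 genes, and a gene was called at an adjusted p under 0.05. Whether replicates came from different litters is not stated in the labels, so the p-values rest on the spread among libraries, which may be technical. A separate protocol text accompanies the E14.5 samples, so age and handling cannot be told apart there. Alignments outside annotated genes made up 2.67%, 1.92% and 4.88% of each library at E10.5, and between 2.16% and 2.42% at E11.5. They made up between 5.03% and 5.43% at E12.5, and between 5.78% and 6.21% at E14.5. Within E10.5 the library with 4.88%, replicate 3, also had the highest levels of Igf2, Meg3, Zim1, Magel2, Airn, Mirg and Kcnq1ot1. The same held for H19, Dlk1, Rian, Plagl1, Peg3, Usp29, Ppp1r9a, Mest, Grb10, Igf2r, Mkrn3, Nnat, Blcap, Ascl2 and Gnas. Peg10, Sgce, Asb4, Copg2, Ndn, Peg12, Snrpn, Ube3a, Zdbf2, Impact, Phlda2, Cd81, Peg13, Trappc9 and Inpp5f were highest in replicate 1 or 2.

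As a group, imprinted genes dipped at E11.5 and then climbed to their highest summed level at E14.5. Their counts together made up 7749 to 8719 CPM at E10.5, 6301 to 6971 CPM at E11.5, 8414 to 9113 CPM at E12.5 and 10990 to 11780 CPM at E14.5. No E11.5 library reached the lowest E10.5 library, and each E14.5 library was above every library of the other stages. Such a sum is weighted toward abundant genes, and Mest, Peg3, Grb10 and Peg10 had lower means at E11.5 than at E10.5. The maternally expressed genes summed to 2019 to 2213 CPM at E11.5 against 1842 to 2092 CPM at E10.5, with overlap. In the joint test 33 of the 37 genes tested differed among the stages, where 81.6% of all genes tested did. Ndn, Mkrn3, Ascl2 and Peg13 were the 4 that did not pass it. At E11.5 against E10.5, 3 were higher, 10 lower and 24 not called, where 12.2% of all genes were called higher and 12.9% lower. At E12.5 against E11.5, 17 were higher and 3 lower, where 27.1% of all genes were higher and 22.2% lower. At that step the alignments outside genes also rose, and with their share in the fit, 3 were higher at E12.5 and none lower. The effect of the share in that fit rests mainly on E10.5 replicate 3. At E14.5 against E12.5, 16 were higher and 5 lower, where 23.0% of all genes were higher and 24.0% lower. Over the whole course, E14.5 against E10.5, 19 were higher and 11 lower, where 36.6% of all genes were higher and 33.8% lower. In either direction, 25.1%, 49.3% and 47.1% of all genes were called at the 3 steps and 70.4% over the whole course. The median log2 fold change over the whole course was 0.59 for the 37 genes and 0.06 for all genes tested. Without scaling beyond the total count, all genes shifted to a median of 0.38 and the split of the imprinted genes was 25 higher and 4 lower, since Usp29, Asb4, Copg2, Grb10, Mkrn3, Ube3a and Inpp5f then lost their call as lower. In bulk tissue, fewer cells of a type and less RNA per cell cannot be told apart.

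**Figure D1:**
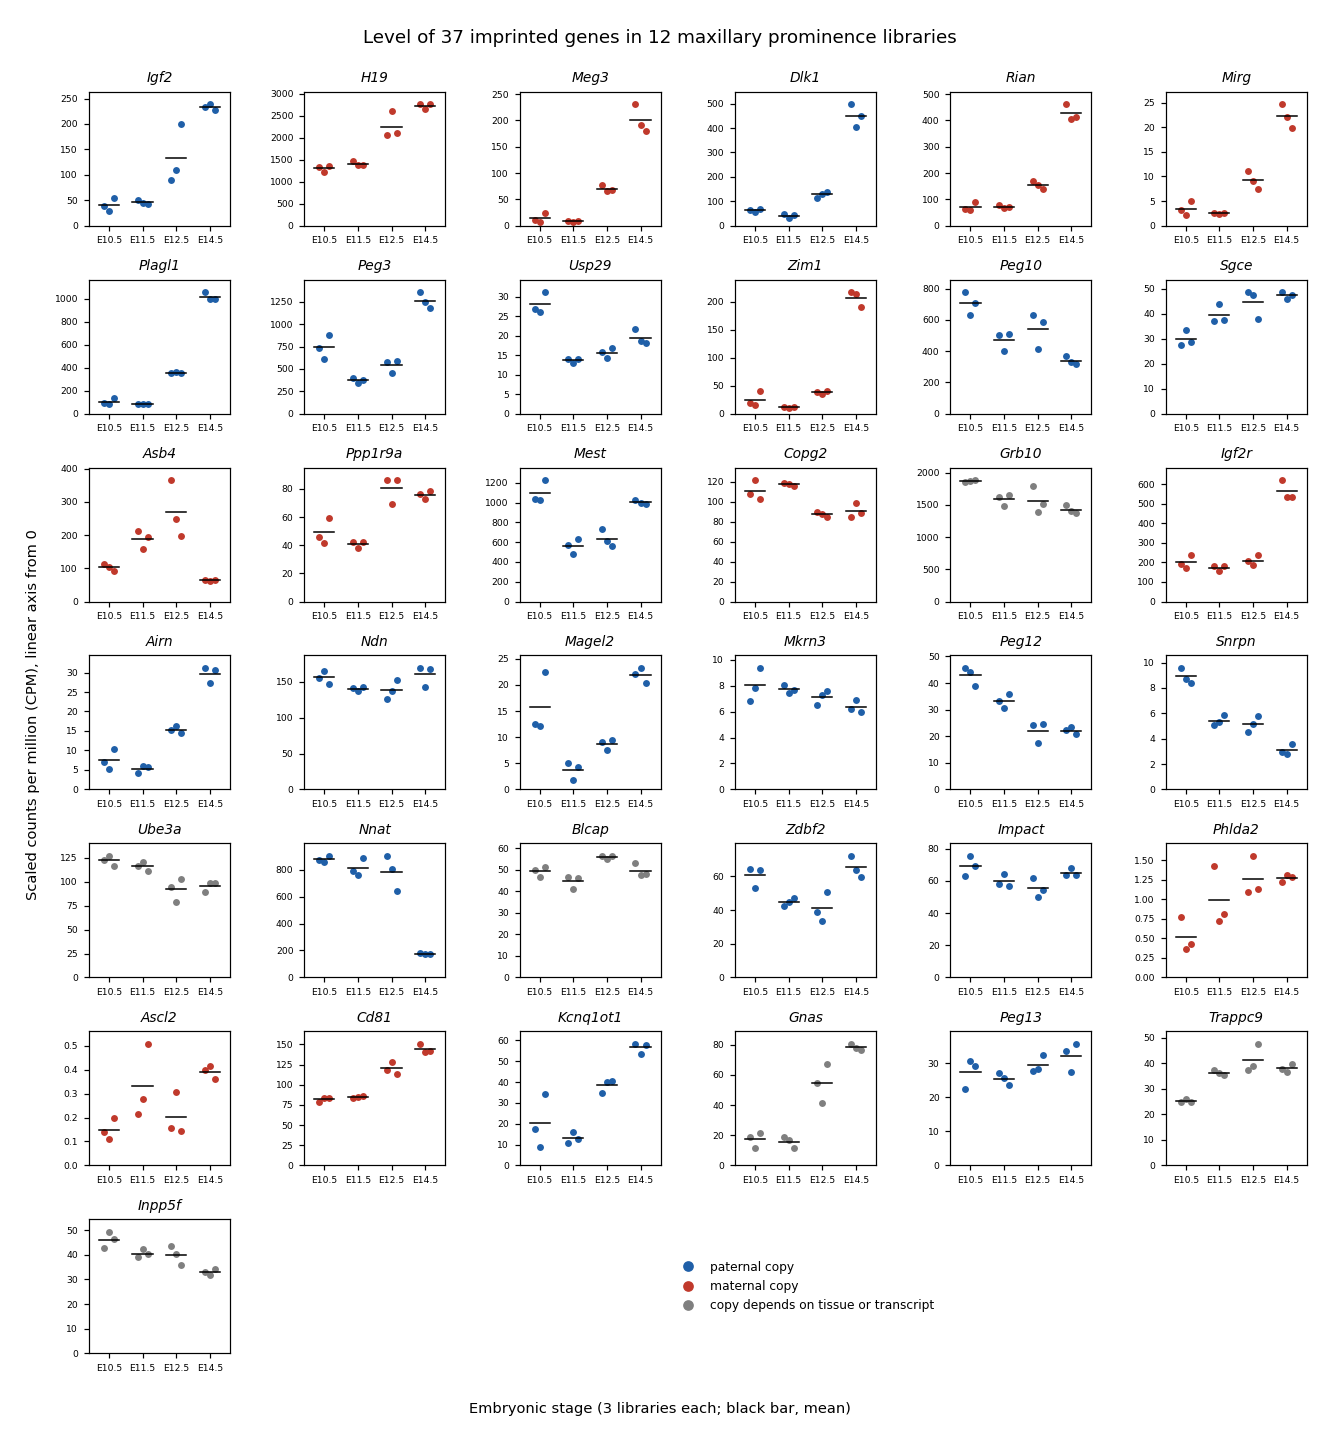
Level of the 37 tested imprinted genes, in CPM on a linear axis from 0, in each of the 12 libraries by embryonic stage. Points are libraries, coloured by the parental copy known to be expressed, and black bars are means; Meg3, Plagl1, Dlk1 and Zim1 stand highest at E14.5, and Nnat and Asb4 stand lowest there.

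Within the insulin-like growth factor axis, Igf2, H19 and Plagl1 rose at E12.5 and E14.5, Igf2r rose at E14.5, and Grb10 changed little. Igf2, the paternally expressed fetal growth factor (chr7:142650766-142666816), had 39.4, 29.1 and 54.7 CPM at E10.5, 50.7, 44.0 and 42.3 CPM at E11.5, 89.5, 109 and 199 CPM at E12.5, and 233, 239.6 and 228 CPM at E14.5. Levels at E10.5 and E11.5 overlapped, E12.5 was higher with replicate 3 far above the other libraries of that stage, and all E14.5 libraries were above all others. Igf2 rose 2.90-fold at E12.5 against E11.5 (log2 fold change 1.54 ± 0.26, edgeR adjusted p = 4.25e-04) and 1.76-fold at E14.5 against E12.5 (log2 fold change 0.82 ± 0.25, edgeR adjusted p = 0.0165). Leaving out E12.5 replicate 1 or replicate 2 ended the call of the second rise, with adjusted p of 0.0760 and 0.0684. Of the annotated exon bases of Igf2, 64.5% are shared with other genes, 62.8% with the readthrough gene Gm49394, which had 0 counts in every library, so the level given for Igf2 may rest on the unshared bases and understate the gene.

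H19, the maternally expressed long noncoding RNA downstream of Igf2 (chr7:142575529-142578143), had 1325, 1231 and 1363 CPM at E10.5, 1474, 1377 and 1390 CPM at E11.5, 2054, 2599 and 2106 CPM at E12.5, and 2760, 2653 and 2771 CPM at E14.5. Per kilobase of annotated exon its level was the highest of the 38 genes at all 4 stages, with 1109 CPM per kilobase at E14.5 against 531 at E10.5. H19 rose 1.59-fold at E12.5 against E11.5 (log2 fold change 0.67 ± 0.11, edgeR adjusted p = 2.88e-04), and its groups at these stages did not overlap. The further change of 1.21-fold at E14.5 against E12.5 was near the threshold (log2 fold change 0.28 ± 0.11, edgeR adjusted p = 0.0461), and the call was lost in 10 of 12 refits that left out 1 library each, with adjusted p up to 0.166. H19 counts per Igf2 count were between 24.9 and 42.4 at E10.5, between 29.1 and 32.8 at E11.5, between 10.6 and 23.8 at E12.5 and between 11.1 and 12.2 at E14.5. Since Igf2 counts may be understated because of shared exon bases, the size of this ratio may overstate H19 against Igf2. The pairs of neighbours whose count ratios are given were chosen after the values were seen, so the ratios are a description, and no test result is given.

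Plagl1, a paternally expressed zinc finger transcription factor known in mouse to raise Igf2 and H19 transcription (chr10:13060504-13131694), had 95.4, 87.3 and 132 CPM at E10.5, 86.4, 83.7 and 86.8 CPM at E11.5, 350.5, 364 and 351 CPM at E12.5, and 1060, 995 and 994 CPM at E14.5. The highest E11.5 library lay just under the lowest E10.5 library, E12.5 stood well above both stages, and E14.5 stood above all of them. Plagl1 rose 4.15-fold at E12.5 against E11.5 (log2 fold change 2.05 ± 0.13, edgeR adjusted p = 3.05e-07), 2.86-fold at E14.5 against E12.5 (log2 fold change 1.52 ± 0.12, edgeR adjusted p = 1.05e-06) and 9.68-fold over the whole course (log2 fold change 3.27 ± 0.13, edgeR adjusted p = 4.15e-10). It was 1 of the 3 genes, with Meg3 and Dlk1, whose rise at E12.5 held when the share of alignments outside genes was added to the fit (log2 fold change 1.46, adjusted p = 0.000178).

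Igf2r, the maternally expressed receptor that takes IGF2 up for degradation (chr17:12682406-12769664), had 194, 173 and 236 CPM at E10.5, 180.5, 158 and 182 CPM at E11.5, 206, 187 and 236 CPM at E12.5, and 623, 537 and 536 CPM at E14.5. E10.5 overlapped both E11.5 and E12.5, all E12.5 libraries lay above all E11.5 libraries without a call, and all E14.5 libraries stood far above the rest. At E14.5 it was 2.696-fold above E12.5 (log2 fold change 1.43 ± 0.12, edgeR adjusted p = 1.65e-06). Airn, the paternally expressed RNA that runs antisense across the Igf2r start and silences the paternal Igf2r copy (chr17:12741311-12860136), had 6.98, 5.32 and 10.5 CPM at E10.5, 4.24, 6.14 and 5.68 CPM at E11.5, 15.2, 16.2 and 14.6 CPM at E12.5, and 31.2, 27.4 and 30.6 CPM at E14.5. The E10.5 and E11.5 libraries overlapped, and E12.5 and then E14.5 lay above all earlier libraries. Airn rose at E12.5 against E11.5 (log2 fold change 1.51 ± 0.20, edgeR adjusted p = 8.80e-05) and again at E14.5 against E12.5 (log2 fold change 0.96 ± 0.19, edgeR adjusted p = 0.00105), so both members of this antisense pair were highest at E14.5. Their annotated exons share no base, but the kit does not mark strand, so unspliced reads of one can fall in exons of the other. Igf2r counts per Airn count were between 22.4 and 32.6 at E10.5, between 25.8 and 42.6 at E11.5, between 11.6 and 16.2 at E12.5 and between 17.5 and 19.9 at E14.5.

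Grb10, an adaptor that restrains insulin and IGF signalling and is expressed from the maternal copy in most tissues and the paternal one in neurons (chr11:11930508-12038683), had 1856, 1868 and 1889 CPM at E10.5, 1622, 1480 and 1651 CPM at E11.5, 1788, 1389 and 1519 CPM at E12.5, and 1501, 1405 and 1374 CPM at E14.5. All E10.5 libraries were above all later ones, and the 3 later stages overlapped. Over the whole course it fell 1.31-fold (log2 fold change -0.39 ± 0.10, edgeR adjusted p = 0.00454), and without scaling beyond the total count this call was lost (log2 fold change -0.07, adjusted p = 0.551).

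In the Dlk1-Meg3 cluster on chromosome 12, the 4 of the 38 genes with counts rose at both later steps, as 9.5% of all genes did. Dlk1, a paternally expressed membrane protein related to the Notch ligands (chr12:109452823-109463336), had 65.8, 57.7 and 68.2 CPM at E10.5, 47.2, 31.2 and 45.0 CPM at E11.5, 114, 131 and 139.9 CPM at E12.5, and 499, 406 and 449 CPM at E14.5. Each E11.5 library was below each E10.5 library, and E12.5 and then E14.5 each lay above all earlier libraries. Dlk1 fell at E11.5 (log2 fold change -0.63 ± 0.14, edgeR adjusted p = 0.00541), rose 3.11-fold at E12.5 (log2 fold change 1.64 ± 0.14, edgeR adjusted p = 4.41e-06) and rose 3.52-fold at E14.5 (log2 fold change 1.82 ± 0.14, edgeR adjusted p = 7.12e-07). Meg3, the maternally expressed noncoding RNA that starts the long transcript unit downstream of Dlk1 (chr12:109541001-109571726), had 11.2, 7.13 and 23.4 CPM at E10.5, 7.97, 7.42 and 9.05 CPM at E11.5, 77.5, 66.8 and 67.1 CPM at E12.5, and 232, 191 and 179 CPM at E14.5. Its E10.5 values spread widely between libraries and overlapped E11.5, whereas E12.5 and E14.5 stood apart. Meg3 rose 8.64-fold at E12.5 against E11.5 (log2 fold change 3.11 ± 0.30, edgeR adjusted p = 9.40e-06) and 2.85-fold at E14.5 against E12.5 (log2 fold change 1.51 ± 0.27, edgeR adjusted p = 5.60e-04). With the share of alignments outside genes in the fit, the E12.5 rise was smaller (log2 fold change 1.56, adjusted p = 0.00480), and that of Dlk1 was 1.39 (adjusted p = 0.0162). Over the whole course Meg3 had the largest change of the 37 genes, 14.3-fold (log2 fold change 3.84 ± 0.30, edgeR adjusted p = 1.28e-07), and without E10.5 replicate 3 its log2 fold change was 4.44.

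Rian, a maternally expressed host of small nucleolar RNAs (chr12:109603940-109661716), had 61.6, 61.4 and 88.4 CPM at E10.5, 77.4, 65.9 and 69.8 CPM at E11.5, 169, 153 and 138 CPM at E12.5, and 463, 405 and 412 CPM at E14.5. Its early stages overlapped, and each of the later ones stood apart. Rian rose 2.16-fold at E12.5 (log2 fold change 1.11 ± 0.13, edgeR adjusted p = 4.53e-05) and 2.78-fold at E14.5 (log2 fold change 1.48 ± 0.13, edgeR adjusted p = 2.49e-06). Mirg, the maternally expressed host of 14 microRNA hairpins on its own strand (chr12:109729764-109749460), had 3.25, 2.07 and 4.97 CPM at E10.5, 2.63, 2.31 and 2.58 CPM at E11.5, 11.04, 9.07 and 7.52 CPM at E12.5, and 24.8, 22.2 and 19.8 CPM at E14.5. E10.5 and E11.5 overlapped, and each later stage lay above all libraries before it. Mirg rose 3.66-fold at E12.5 (log2 fold change 1.87 ± 0.25, edgeR adjusted p = 8.68e-05) and 2.42-fold at E14.5 (log2 fold change 1.27 ± 0.23, edgeR adjusted p = 5.11e-04). With the share of alignments outside genes in the fit, neither Rian nor Mirg was called at E12.5 (for Mirg, log2 fold change 0.83, adjusted p = 0.191), while both kept their calls at E14.5 against E12.5.

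Rian counts per Meg3 count were between 3.79 and 8.60 at E10.5, between 7.72 and 9.71 at E11.5, between 2.06 and 2.30 at E12.5 and between 2.00 and 2.30 at E14.5. Dlk1 counts per Meg3 count were between 2.92 and 8.08 at E10.5, between 4.20 and 5.92 at E11.5, between 1.47 and 2.09 at E12.5 and between 2.13 and 2.51 at E14.5. Both ratios were lower at the 2 later stages than at E11.5 without overlap. Rtl1, a paternally expressed gene derived from a retrotransposon and needed in the placenta (chr12:109589193-109600330), lies in the same cluster. Its 0 counts in 373380307 allow up to 0.00803 CPM, taking 3 counts as the limit and for counting error only, and 7 microRNA genes overlap its exons.

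Peg3 and its neighbours Usp29 and Zim1 all fell at E11.5, and at E14.5 Peg3 and Zim1 were above their E10.5 levels and Usp29 below its own. Peg3, a paternally expressed zinc finger protein (chr7:6703892-6730431), had 737, 612 and 882 CPM at E10.5, 396, 344 and 375 CPM at E11.5, 581, 453 and 584 CPM at E12.5, and 1363, 1248 and 1183 CPM at E14.5. Every E11.5 library was below every E10.5 library, and every E14.5 library was above all others. Peg3 fell 2.00-fold at E11.5 (edgeR adjusted p = 1.76e-04), rose 1.45-fold at E12.5 (log2 fold change 0.54 ± 0.14, edgeR adjusted p = 0.00595) and rose 2.34-fold at E14.5 (log2 fold change 1.23 ± 0.14, edgeR adjusted p = 1.48e-05). Usp29, a paternally expressed gene for a ubiquitin protease that starts 147 bases away on the other strand (chr7:6730578-6967219), averaged 28.2 ± 2.74 CPM at E10.5, 13.7 ± 0.512 CPM at E11.5, 15.7 ± 1.34 CPM at E12.5 and 19.5 ± 1.93 CPM at E14.5 (SD, n = 3 each). It fell 2.06-fold at E11.5 (log2 fold change -1.04 ± 0.11, edgeR adjusted p = 1.41e-05) and stayed below its E10.5 level at E14.5 (log2 fold change -0.53 ± 0.10, edgeR adjusted p = 4.34e-04), although without scaling beyond the total count this last call was lost (log2 fold change -0.21, adjusted p = 0.155). Its small rise at E14.5 against E12.5 (log2 fold change 0.32, adjusted p = 0.0231) was lost without E12.5 replicate 1, E12.5 replicate 2 or E14.5 replicate 1, with adjusted p from 0.0569 to 0.112. Peg3 counts per Usp29 count were between 23.3 and 28.2 at E10.5, between 26.3 and 28.4 at E11.5, between 31.8 and 36.6 at E12.5 and between 62.7 and 66.7 at E14.5. The ratios of E10.5 and E11.5 overlapped, and E12.5 and then E14.5 lay above all earlier libraries. Of the coding bases of Usp29, 96.8% are shared with exons of other genes. Zim3, on the opposite strand and with 0 counts in every library, shares 14.3% of its exon bases.

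Zim1, a maternally expressed zinc finger gene next to Peg3 (chr7:6671269-6696450), had 19.2, 14.7 and 39.6 CPM at E10.5, 11.8, 10.2 and 12.0 CPM at E11.5, 38.5, 35.6 and 39.9 CPM at E12.5, and 218, 214 and 191 CPM at E14.5. Replicate 3 stood above the others at E10.5, E11.5 was below all of them, and E14.5 was far above all other libraries. Zim1 fell 2.17-fold at E11.5 (log2 fold change -1.12 ± 0.26, edgeR adjusted p = 0.00734), rose 3.36-fold at E12.5 (log2 fold change 1.75 ± 0.26, edgeR adjusted p = 2.05e-04) and rose 5.46-fold at E14.5 (log2 fold change 2.45 ± 0.25, edgeR adjusted p = 7.52e-06). The E12.5 rise was lost with the share of alignments outside genes in the fit (log2 fold change 0.40, adjusted p = 0.250). Zim1 counts per Peg3 count were between 0.024 and 0.0449 at E10.5, between 0.0295 and 0.0319 at E11.5, between 0.0662 and 0.0786 at E12.5 and between 0.160 and 0.171 at E14.5.

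**Figure D2:**
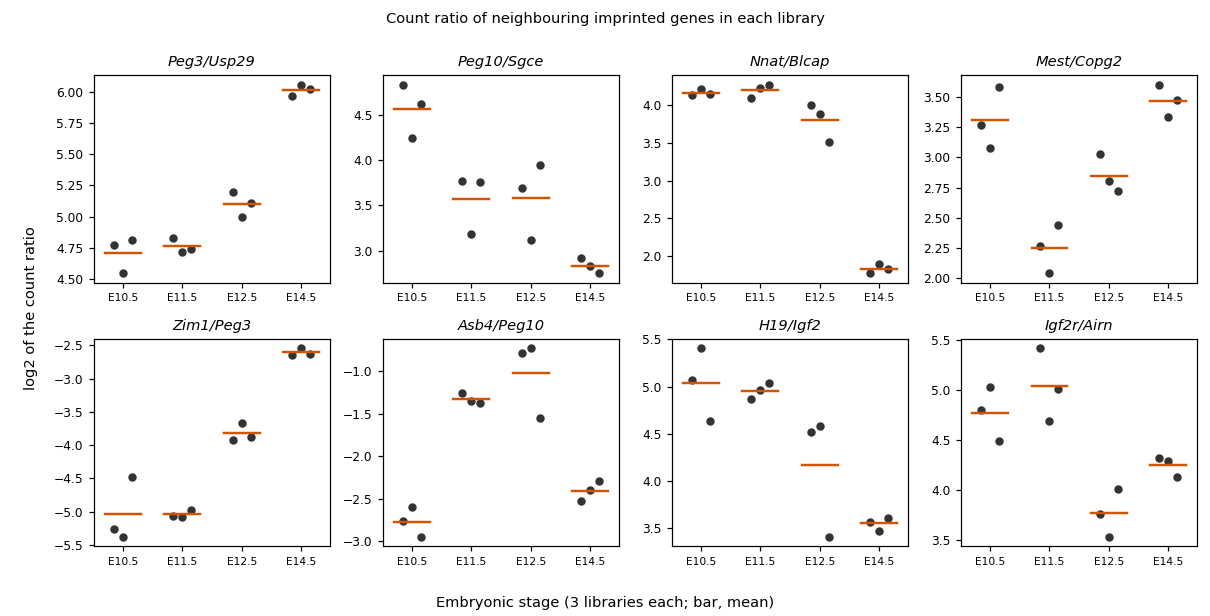
Count ratios of 8 pairs of neighbouring imprinted genes, as log2 values, in each of the 12 libraries by embryonic stage. Points are libraries and bars are stage means; Peg3 over Usp29 and Zim1 over Peg3 are highest at E14.5, and Peg10 over Sgce and Nnat over Blcap are lowest there.

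Peg10 and Sgce, a second head-to-head pair with starts 99 bases apart, moved in opposite directions at E11.5 and over the whole course. Peg10, a paternally expressed gene derived from a retrotransposon (chr6:4747306-4760517), had 779.7, 631 and 711 CPM at E10.5, 505, 399 and 507 CPM at E11.5, 632, 411 and 583 CPM at E12.5, and 368, 328 and 318 CPM at E14.5. All E14.5 libraries were below all others, and E11.5 and E12.5 overlapped. Peg10 fell at E11.5 (log2 fold change -0.59 ± 0.15, edgeR adjusted p = 0.012), again at E14.5 against E12.5 (log2 fold change -0.68 ± 0.15, edgeR adjusted p = 0.00246) and 2.09-fold over the whole course (log2 fold change -1.06 ± 0.15, edgeR adjusted p = 2.96e-05). Sgce, the paternally expressed gene of epsilon-sarcoglycan (chr6:4674350-4747207), averaged 29.9 ± 3.10 CPM at E10.5, 39.5 ± 3.77 CPM at E11.5, 44.7 ± 6.01 CPM at E12.5 and 47.3 ± 1.35 CPM at E14.5 (SD, n = 3 each). It rose at E11.5 (log2 fold change 0.40 ± 0.11, edgeR adjusted p = 0.0165) and 1.58-fold over the whole course (log2 fold change 0.66 ± 0.11, edgeR adjusted p = 1.07e-04). The E11.5 calls of both genes were lost without E10.5 replicate 1 (adjusted p = 0.0516 for Peg10 and 0.0682 for Sgce) or without E11.5 replicate 2 (0.0658 and 0.0837). Peg10 counts per Sgce count were between 18.9 and 28.4 at E10.5, between 9.10 and 13.6 at E11.5, between 8.66 and 15.4 at E12.5 and between 6.73 and 7.57 at E14.5.

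Farther along the same chromosome 6 cluster, Asb4, a maternally expressed SOCS-box ankyrin repeat protein (chr6:5383386-5433022), had 115, 104 and 91.9 CPM at E10.5, 212, 157 and 196 CPM at E11.5, 367, 248 and 199 CPM at E12.5, and 63.7, 62.3 and 64.9 CPM at E14.5. It was highest at E11.5 and E12.5, which overlapped, and at E14.5 all libraries were below all others. Asb4 rose 1.82-fold at E11.5 (log2 fold change 0.86 ± 0.18, edgeR adjusted p = 0.00348) and 1.44-fold at E12.5 (log2 fold change 0.53 ± 0.18, edgeR adjusted p = 0.0257), then fell 4.26-fold at E14.5 (log2 fold change -2.09 ± 0.19, edgeR adjusted p = 2.03e-06). The E12.5 call was lost without E11.5 replicate 2, E11.5 replicate 3 or E12.5 replicate 1, with adjusted p from 0.0551 to 0.166. Ppp1r9a, the maternally expressed gene of the actin-binding protein neurabin (chr6:4902917-5165661), averaged 49.1 ± 9.18 CPM at E10.5, 41.0 ± 2.55 CPM at E11.5, 80.7 ± 9.61 CPM at E12.5 and 75.8 ± 2.90 CPM at E14.5 (SD, n = 3 each) and rose once, at E12.5 (log2 fold change 0.98 ± 0.12, edgeR adjusted p = 5.61e-05).

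Mest, a paternally expressed gene for a hydrolase-like protein of mesoderm (chr6:30723547-30748465), had 1038, 1029 and 1232 CPM at E10.5, 572, 484 and 632 CPM at E11.5, 735, 610.4 and 557 CPM at E12.5, and 1030, 999 and 984 CPM at E14.5. E11.5 and E12.5 overlapped and lay below all other libraries, and E14.5 overlapped E10.5. Mest fell 1.95-fold at E11.5 (log2 fold change -0.97 ± 0.13, edgeR adjusted p = 1.16e-04) and rose 1.58-fold at E14.5 against E12.5 (log2 fold change 0.66 ± 0.13, edgeR adjusted p = 8.19e-04). Copg2, which codes for a coat protein of Golgi vesicles and meets Mest tail to tail (chr6:30747554-30896794), had 108, 122 and 102 CPM at E10.5, 119, 118 and 116 CPM at E11.5, 90.1, 87.3 and 84.7 CPM at E12.5, and 84.8, 99.1 and 88.4 CPM at E14.5. Libraries of the 2 later stages lay below all earlier ones. Copg2 was lower at E12.5 than E11.5 (log2 fold change -0.43 ± 0.08, edgeR adjusted p = 8.91e-04). It was also lower over the whole course (log2 fold change -0.29 ± 0.08, edgeR adjusted p = 0.00605), but without scaling beyond the total count this direction turned to a log2 fold change of 0.041 (adjusted p = 0.611). The pair shares 912 exon bases on opposite strands, 23.1% of those of Mest and 17.8% of those of Copg2. Mest counts per Copg2 count were between 8.43 and 12.0 at E10.5, between 4.11 and 5.44 at E11.5, between 6.58 and 8.15 at E12.5 and between 10.1 and 12.2 at E14.5.

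Nnat showed the deepest fall. It codes for neuronatin, a small membrane protein of the endoplasmic reticulum, is paternally expressed and lies within an intron of Blcap (chr2:157560078-157562522). Nnat had 871, 861 and 905 CPM at E10.5, 792, 762 and 886 CPM at E11.5, 904, 805 and 644 CPM at E12.5, and 181, 177 and 170.4 CPM at E14.5. Through E12.5 its levels lay between 644 and 905 CPM, and all E14.5 libraries lay far below them. It fell 4.46-fold at E14.5 against E12.5 (log2 fold change -2.16 ± 0.12, edgeR adjusted p = 4.28e-08), and this held with the share of alignments outside genes in the fit (log2 fold change -2.17, adjusted p = 1.91e-07). Blcap, the host gene (chr2:157556362-157571274), averaged 49.3 ± 2.47 CPM at E10.5, 44.5 ± 3.03 CPM at E11.5, 55.9 ± 0.951 CPM at E12.5 and 49.5 ± 2.91 CPM at E14.5 (SD, n = 3 each) and was called in 1 step, higher at E12.5 than E11.5 (log2 fold change 0.33 ± 0.08, edgeR adjusted p = 0.00344). Nnat counts per Blcap count were between 17.4 and 18.5 at E10.5, between 17.1 and 19.2 at E11.5, between 11.4 and 16.0 at E12.5 and between 3.42 and 3.71 at E14.5. Per kilobase of exon Nnat stood next to H19 at the top of the 38 genes at E10.5, with 480 CPM per kilobase, and it had 96.3 at E14.5.

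In the Snrpn cluster on chromosome 7, the counterpart of the region deleted in human Prader-Willi and Angelman syndromes, none of the 6 genes that belong to the 38 was higher at E14.5 than at E10.5 and 4 were lower. Among all genes tested, 36.6% were higher and 33.8% lower. Of other imprinted genes in this cluster, the noncoding RNA Snhg14 was lower (log2 fold change -1.51 ± 0.12, edgeR adjusted p = 1.49e-07) and Atp10a higher (log2 fold change 0.56 ± 0.14, edgeR adjusted p = 0.00234). Snrpn, a paternally expressed spliceosomal protein gene (chr7:59982495-60140219), had 9.60, 8.72 and 8.42 CPM at E10.5, 5.05, 5.28 and 5.85 CPM at E11.5, 4.52, 5.19 and 5.78 CPM at E12.5, and 2.97, 2.81 and 3.56 CPM at E14.5. All E11.5 libraries lay below all E10.5 libraries, E11.5 and E12.5 overlapped, and E14.5 was the lowest stage without overlap. Snrpn fell at E11.5 (log2 fold change -0.72 ± 0.15, edgeR adjusted p = 0.00347) and again at E14.5 (log2 fold change -0.73 ± 0.15, edgeR adjusted p = 0.00185), and was 2.85-fold lower over the whole course. These counts may leave out part of the locus, because 34.1% of its exon bases are shared with Gm38393, Snurf and a pseudogene. Ube3a, the ubiquitin ligase expressed from the maternal copy in neurons (chr7:59228750-59311536), had 123, 127 and 117 CPM at E10.5, 116, 121 and 112 CPM at E11.5, 94.5, 78.8 and 103 CPM at E12.5, and 89.1, 99.2 and 99.0 CPM at E14.5. All libraries of the 2 later stages lay below all of the earlier ones. Ube3a was lower at E12.5 than E11.5 (log2 fold change -0.34 ± 0.09, edgeR adjusted p = 0.0087) and without scaling beyond the total count was not called (log2 fold change -0.12, adjusted p = 0.360). Of its exon bases 27.3% are shared with transcripts on the other strand. Snrpn counts per Ube3a count were between 0.0685 and 0.0779 at E10.5, between 0.0434 and 0.0524 at E11.5, between 0.0479 and 0.0659 at E12.5 and between 0.0284 and 0.0359 at E14.5.

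The intronless paternally expressed genes of that cluster differed in course. Ndn, which codes for necdin, a MAGE family protein that restrains cell division (chr7:62346569-62350262), had 156, 166 and 147 CPM at E10.5, 141, 137 and 143 CPM at E11.5, 126, 138 and 152 CPM at E12.5, and 169.8, 143 and 168 CPM at E14.5. All E11.5 libraries lay below all E10.5 libraries, the other consecutive stages overlapped, and it did not pass the joint test (adjusted p = 0.0899). Magel2, a MAGE family gene next to it (chr7:62377010-62381640), averaged 15.7 ± 5.81 CPM at E10.5, 3.77 ± 1.68 CPM at E11.5, 8.66 ± 1.08 CPM at E12.5 and 21.9 ± 1.42 CPM at E14.5 (SD, n = 3 each). It had the largest fall of any of the 37 genes at E11.5, 4.18-fold (log2 fold change -2.06 ± 0.30, edgeR adjusted p = 2.55e-04), and then rose at E12.5 (log2 fold change 1.20 ± 0.30, edgeR adjusted p = 0.00518) and at E14.5 (log2 fold change 1.34 ± 0.28, edgeR adjusted p = 0.00157). Peg12, a FRAT family gene, averaged 43.0 ± 3.66 CPM at E10.5, 33.2 ± 2.69 CPM at E11.5, 22.1 ± 3.92 CPM at E12.5 and 22.1 ± 1.25 CPM at E14.5 (SD, n = 3 each) and was 1.94-fold lower over the whole course (log2 fold change -0.96 ± 0.12, edgeR adjusted p = 9.86e-06). Its E11.5 call was lost in 7 of 12 refits that left out 1 library each, with adjusted p up to 0.149. Mkrn3, a ring finger protein known for restraining puberty in humans, ranged from 5.93 to 9.38 CPM. Its consecutive stages overlapped, although all E14.5 libraries lay below all E11.5 libraries, and its call over the whole course (log2 fold change -0.34, adjusted p = 0.0441) was lost in 7 of 12 such refits, with adjusted p up to 0.178.

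In the Kcnq1 cluster at the end of chromosome 7, the 4 genes that belong to the 38 were called higher at E14.5 than E10.5. Among all genes tested, 36.6% were higher and 33.8% lower. The cluster did not move as a whole. Of other imprinted genes listed there, Cdkn1c, Kcnq1, Slc22a18, Osbpl5 and Tnfrsf23 were also called higher. Called lower were Nap1l4 (log2 fold change -0.96 ± 0.09, edgeR adjusted p = 4.84e-07), Dhcr7 (-0.92 ± 0.07, edgeR adjusted p = 1.24e-07) and Th (-1.57 ± 0.64, edgeR adjusted p = 0.0423). Tspan32 did not pass the test (log2 fold change -0.25 ± 0.32, edgeR adjusted p = 0.507). Cd81, a tetraspanin of the cell surface (chr7:143052739-143067934), had 78.2, 83.7 and 83.1 CPM at E10.5, 83.7, 84.5 and 86.0 CPM at E11.5, 119, 128 and 113 CPM at E12.5, and 151, 140.4 and 142 CPM at E14.5. E12.5 and E14.5 each stood above all earlier libraries (log2 fold change 0.50 ± 0.07, edgeR adjusted p = 1.02e-04 at E12.5, and log2 fold change 0.27 ± 0.07, edgeR adjusted p = 0.00585 at E14.5). Kcnq1ot1, the paternally expressed RNA that silences its neighbours on that chromosome (chr7:143203458-143296549), had 17.7, 9.02 and 34.2 CPM at E10.5, 10.6, 16.1 and 12.6 CPM at E11.5, 34.9, 40.0 and 40.4 CPM at E12.5, and 58.5, 53.5 and 58.0 CPM at E14.5. It spread widely at E10.5, overlapped E11.5 there, and was higher at E12.5 than E11.5 (log2 fold change 1.55 ± 0.33, edgeR adjusted p = 0.0018). With the share of alignments outside genes in the fit that estimate turned negative (log2 fold change -0.15, adjusted p = 0.802), and without E10.5 replicate 3 its log2 fold change over the whole course was 2.08 and not 1.48. Kcnq1ot1 is annotated as 1 exon of 93092 bases, so any read from that stretch could be counted for it.

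Phlda2, which restrains growth of the placenta, had 0.768, 0.370 and 0.428 CPM at E10.5, 1.42, 0.725 and 0.816 CPM at E11.5, 1.09, 1.56 and 1.13 CPM at E12.5, and 1.23, 1.31 and 1.29 CPM at E14.5. All E14.5 libraries were above all E10.5 libraries (log2 fold change 1.28 ± 0.34, edgeR adjusted p = 0.00448), at levels near 1 CPM. Ascl2, a trophoblast transcription factor, stayed between 0.111 and 0.510 CPM. Its call over the whole course (log2 fold change 1.35 ± 0.47, adjusted p = 0.0195) was lost without E10.5 replicate 1 (adjusted p = 0.0593) or replicate 2 (adjusted p = 0.0727). Markers of trophoblast, a list of 11 genes, summed to 3.95 to 5.12 CPM at E14.5 and 4.05 to 4.77 CPM at E10.5, and reached 33.3 CPM in 1 E12.5 library, with Synb and Ctsq at 0 in all libraries.

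Gnas, which codes for the stimulatory G protein subunit and has transcripts imprinted in different directions (chr2:174284320-174346744), had 18.7, 11.6 and 21.5 CPM at E10.5, 18.6, 16.5 and 11.4 CPM at E11.5, 54.4, 41.4 and 67.5 CPM at E12.5, and 80.8, 77.6 and 76.2 CPM at E14.5. It rose 3.51-fold at E12.5 (log2 fold change 1.81 ± 0.23, edgeR adjusted p = 5.50e-05), E14.5 lay above all E12.5 libraries without passing the test (adjusted p = 0.0586), and over the whole course it rose 4.52-fold (log2 fold change 2.18 ± 0.23, edgeR adjusted p = 1.47e-06). With the share of alignments outside genes in the fit the E12.5 call was lost (log2 fold change 1.22, adjusted p = 0.112). Of its coding bases 41.4% are shared with exons of other genes, and counts per gene cannot separate its transcripts.

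Zdbf2, a paternally expressed zinc finger gene whose transcription begins at an upstream start in the early embryo (chr1:63273265-63314576), averaged 60.6 ± 6.33 CPM at E10.5, 44.8 ± 2.52 CPM at E11.5, 41.0 ± 8.88 CPM at E12.5 and 65.4 ± 6.34 CPM at E14.5 (SD, n = 3 each). It was lower at E11.5 than E10.5 (log2 fold change -0.44 ± 0.13, edgeR adjusted p = 0.0302), a call lost in 7 of 12 refits that left out 1 library each (adjusted p up to 0.109), and higher at E14.5 than E12.5 (log2 fold change 0.67 ± 0.13, edgeR adjusted p = 0.00116). Impact, an inhibitor of the amino acid sensor GCN2, passed the joint test (adjusted p = 0.0243) but no single comparison, between 50.1 and 75.6 CPM. Inpp5f, a phosphoinositide phosphatase, was lower over the whole course (log2 fold change -0.48 ± 0.09, edgeR adjusted p = 2.32e-04). Its fall at E14.5 against E12.5 (log2 fold change -0.28, adjusted p = 0.0187) was lost without E12.5 replicate 1, E14.5 replicate 1 or E14.5 replicate 2, with adjusted p from 0.0546 to 0.0644.

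Peg13, a paternally expressed noncoding RNA inside an intron of Trappc9, lay between 22.4 and 35.8 CPM and did not pass the joint test (adjusted p = 0.106). Its E12.5 and E14.5 libraries all lay above its E11.5 libraries, and E10.5 overlapped every other stage. Trappc9, a subunit of a vesicle tethering complex (chr15:72589620-73061204), averaged 25.2 ± 0.555 CPM at E10.5, 36.3 ± 0.901 CPM at E11.5, 41.4 ± 5.54 CPM at E12.5 and 38.05 ± 1.67 CPM at E14.5 (SD, n = 3 each) and rose at E11.5 (log2 fold change 0.52 ± 0.09, edgeR adjusted p = 9.96e-04). Peg13 counts per Trappc9 count were between 0.898 and 1.19 at E10.5, between 0.667 and 0.728 at E11.5, between 0.682 and 0.741 at E12.5 and between 0.753 and 0.899 at E14.5.

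**Figure D3:**
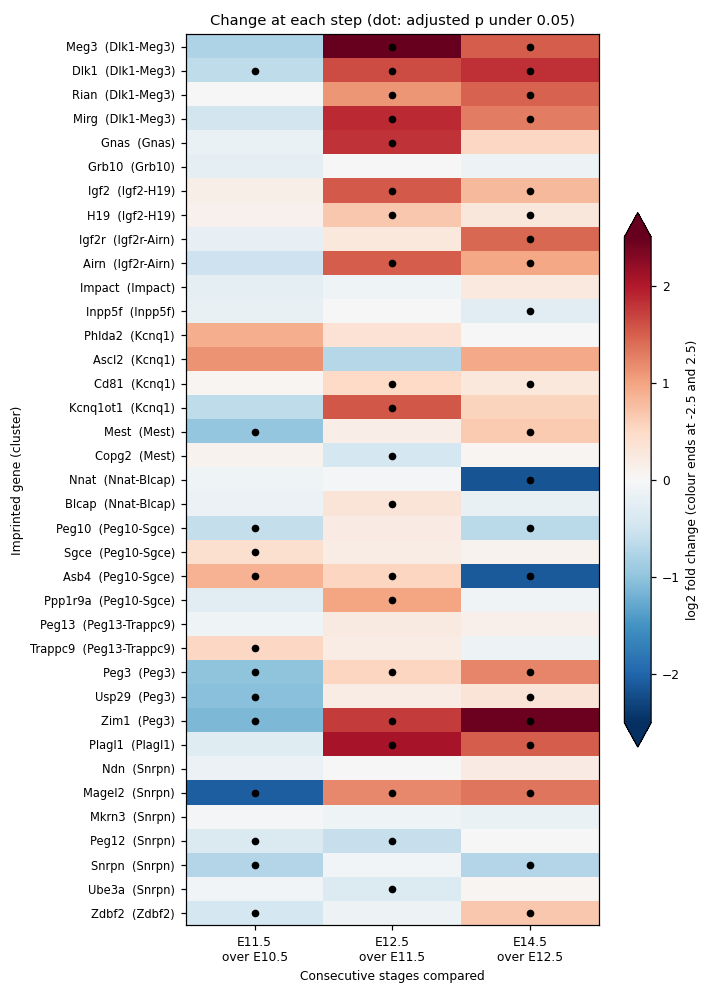
Log2 fold changes of the 37 tested imprinted genes at the 3 consecutive steps, later stage over earlier, with genes in rows ordered by chromosomal cluster. Colour gives the size and direction, and a dot marks an adjusted p under 0.05; dotted cells are 10 falls and 3 rises at E11.5, 17 rises and 3 falls at E12.5, and 16 rises and 5 falls at E14.5.

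Read across the steps, 2 courses were shared by several clusters. A fall at E11.5 and a later rise at E14.5 against E12.5 was found for 7 genes, namely Dlk1, Peg3, Usp29, Zim1, Mest, Magel2 and Zdbf2, which lie in 5 clusters on 4 chromosomes. They are 18.9% of the 37 genes, where 3.28% of all genes tested had this course. For 4 of them, Dlk1, Peg3, Zim1 and Magel2, the rise was called already at E12.5, where 4.29% of all genes had a fall at E11.5 and a rise at E12.5. A rise at both E12.5 and E14.5 was found for 12 genes, 32.4% where 9.5% of all genes had it. They were Igf2, H19, Meg3, Dlk1, Rian, Mirg, Plagl1, Peg3, Zim1, Airn, Magel2 and Cd81. With the share of alignments outside genes in the fit, only Meg3, Dlk1 and Plagl1 of these 12 kept the E12.5 call. In the 12 refits that left out 1 library each, the E14.5 call of H19 was lost in 10 and that of Igf2 in 2. Among the 7 genes named before, the refits lost the E11.5 call of Zdbf2 in 7 and the E14.5 call of Usp29 in 3. None of the 37 rose at every step, where 1.74% of all genes did, and none fell at every step, where 1.38% did.

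By parental copy, 9 of 19 paternally expressed genes tested fell at E11.5 and 1 rose (Sgce), whereas among 12 maternally expressed genes 1 fell (Zim1) and 1 rose (Asb4). These are 47.4% lower for the paternal group and 8.33% for the maternal group, where 12.9% of all genes were called lower. Summed levels of the paternal group were 2544 to 2968 CPM at E11.5 and 3779 to 4478 CPM at E10.5, without overlap, while those of the maternal group without H19 were 642 to 739 CPM at E11.5 and 611 to 729.5 CPM at E10.5, with overlap. Over the whole course 10 of 12 maternally expressed genes rose and 2 fell (Asb4 and Copg2), against 7 rises and 6 falls among 19 paternally expressed ones, where 36.6% of all genes were higher and 33.8% lower. The paternal shares, 36.8% and 31.6%, are near those of all genes. The maternal group without H19 summed to 1713 to 1938 CPM at E14.5 against 611 to 729.5 CPM at E10.5, without overlap. Whether the groups differ was not tested, since genes of 1 cluster are not independent of each other.

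**Figure D4:**
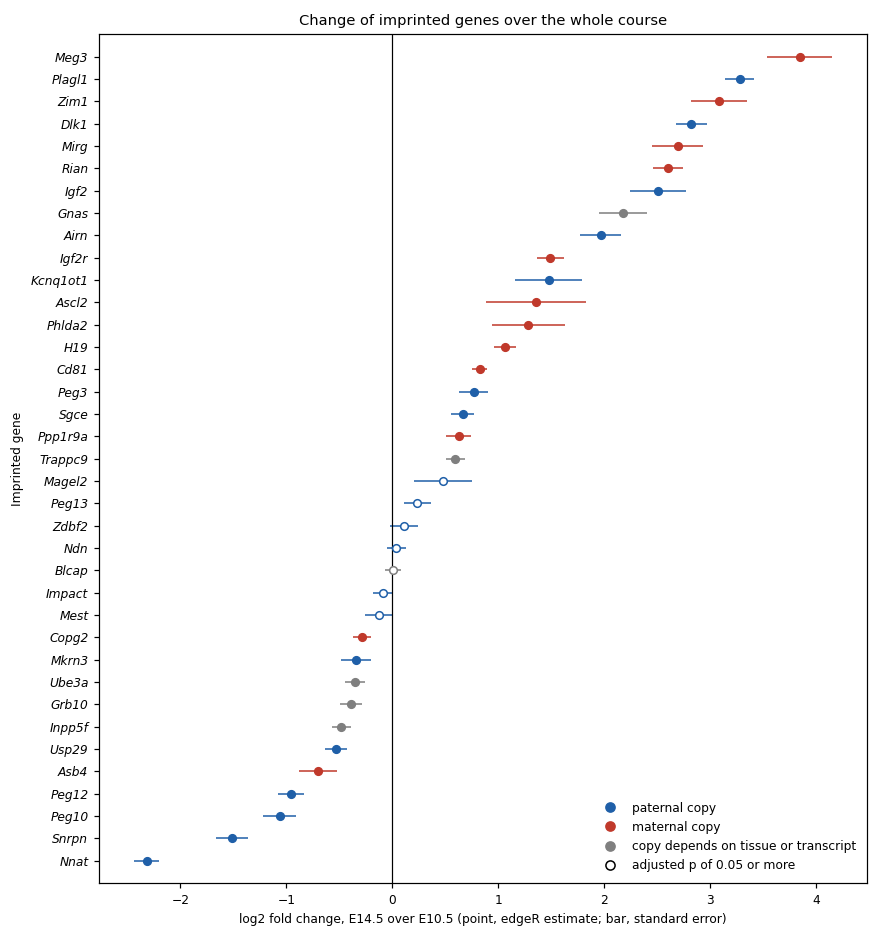
Log2 fold change of E14.5 over E10.5 for the 37 tested imprinted genes, sorted by size, with bars of 1 standard error and colour for the parental copy known to be expressed. Open points did not pass an adjusted p of 0.05; Meg3 is at the top with 3.84 and Nnat at the bottom with -2.32.

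Other genes bearing on imprinting were followed through the same fit. Of 56 further imprinted genes listed, 45 were tested, and 30 were higher and 10 lower at E14.5 than at E10.5, with a median log2 fold change of 0.92. These are 66.7% and 22.2%, where 36.6% of all genes were higher and 33.8% lower. Cdkn1c, a maternally expressed inhibitor of the cell cycle in the Kcnq1 cluster, averaged 294 ± 8.09 CPM at E14.5 and 114 ± 9.80 CPM at E10.5 (SD, n = 3 each; adjusted p = 6.44e-08). Dcn, a proteoglycan of connective tissue, averaged 481 ± 47.2 CPM at E14.5 and 2.52 ± 0.464 CPM at E10.5, and Dio3, the deiodinase gene at the far end of the Dlk1-Meg3 cluster, averaged 19.5 ± 1.69 CPM at E14.5 and 0.681 ± 0.192 CPM at E10.5. Both were called higher (adjusted p = 2.83e-09 for Dcn and 7.19e-09 for Dio3), as were the transcription factor Klf14 near Mest (log2 fold change 4.03 ± 0.32, adjusted p = 1.47e-07) and the receptor Tnfrsf23 (5.54 ± 0.48, adjusted p = 2.62e-07). Of 35 genes that flank these clusters and are not known to be imprinted, 33 were tested, and 15 were higher and 11 lower, with a median of -0.08. Their 45.5% higher and 33.3% lower stand beside 36.6% and 33.8% of all genes. Named by size of change, Trpm5 (6.95), the muscle troponin Tnnt3 (5.91) and Gabrg3 (3.04) were higher and Slc25a13 (-2.21) lower on the log2 scale, each called with an adjusted p of 7.40e-06 or less.

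Genes that set or keep the imprints were mostly lower at the later stages. Of 23 listed, 19 were tested, and none was higher and 14 were lower at E14.5 than at E10.5, and at E12.5 against E11.5, 1 was higher and 16 were lower. The shares lower were 73.7% over the course, where 33.8% of all genes were lower, and 84.2% at E12.5, where 22.2% were. The alignments outside genes also rose at that E12.5 step. With their share in the fit, 3.77% of all genes were called there in either direction. The de novo DNA methyltransferase Dnmt3b averaged 11.6 ± 0.653 CPM at E14.5 and 46.2 ± 5.25 CPM at E10.5 (SD, n = 3 each), and the maintenance methyltransferase Dnmt1 averaged 256 ± 11.1 CPM at E14.5 and 451 ± 4.10 CPM at E10.5. Uhrf1, which guides DNMT1 to newly copied DNA, averaged 176 ± 7.66 CPM at E14.5 and 422 ± 25.7 CPM at E10.5, the chromatin remodeller Hells averaged 93.7 ± 4.77 CPM at E14.5 and 299 ± 27.5 CPM at E10.5, and the Polycomb methyltransferase Ezh2 averaged 86.3 ± 1.84 CPM at E14.5 and 232 ± 15.1 CPM at E10.5. Zfp57 itself averaged 58.9 ± 2.03 CPM at E14.5 and 52.7 ± 10.7 CPM at E10.5 and did not pass the test (adjusted p = 0.303). Many of these genes are known to follow cell division, and 13 of 13 cell division markers were lower at E14.5 as well, summing to 2551 to 2823 CPM at E14.5 against 5336 to 6421 CPM at E10.5. Their part in the result was not tested.

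A further list of 22 genes held partners of IGF2 and DLK1 signalling together with G protein and adenylyl cyclase genes and other growth regulators. All were tested, and 12 were higher and 8 lower at E14.5 than at E10.5. These are 54.5% and 36.4%, where 36.6% of all genes were higher and 33.8% lower, so the share lower is near that of all genes. Lin28a, an RNA-binding protein that blocks let-7 maturation, averaged 0.146 ± 0.0611 CPM at E14.5 and 56.6 ± 12.1 CPM at E10.5 (SD, n = 3 each). Its relative Lin28b averaged 2.80 ± 0.580 CPM at E14.5 and 131 ± 10.8 CPM at E10.5. Igf2bp1, which binds Igf2 transcripts, averaged 88.5 ± 3.61 CPM at E14.5 and 380.1 ± 8.33 CPM at E10.5. Igfbp3, a binding protein that holds IGFs in the extracellular space, averaged 270.0 ± 13.5 CPM at E14.5 and 35.7 ± 1.35 CPM at E10.5, and Adcy5, an adenylyl cyclase, averaged 22.6 ± 0.842 CPM at E14.5 and 3.78 ± 0.475 CPM at E10.5. All 5 were called (adjusted p of 2.00e-08 or less). The signalling receptor Igf1r averaged 150.2 ± 5.50 CPM at E14.5 and 159 ± 16.8 CPM at E10.5 and did not pass the test (adjusted p = 0.434), while its other ligand Igf1 was called higher (log2 fold change 1.64 ± 0.15, adjusted p = 5.20e-07).

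Lists of cell type markers also changed between stages, and they did not all go the same way. Skeletal muscle markers, of which 12 of 12 tested were higher at E12.5 and again at E14.5, summed to 40.8 to 50.6 CPM at E10.5, 36.0 to 51.9 CPM at E11.5, 202 to 428 CPM at E12.5 and 2026 to 2553 CPM at E14.5. Osteoblast markers, 10 of 10 higher at E14.5 than at E12.5, summed to 7007 to 8861 CPM at E14.5 and 413 to 704 CPM at E12.5. Among all genes, 27.1% were higher at E12.5 than at E11.5, and 23.0% at E14.5 than at E12.5. Marker lists went in both directions at E11.5 against E10.5, where Peg3 and Mest fell and 12.2% of all genes were higher and 12.9% lower. On the lower side, 5 of 11 cartilage markers were lower and none higher, with a sum of 239.7 to 326 CPM at E11.5 against 694 to 901 CPM at E10.5. Likewise 8 of 12 endothelial markers were lower (209 to 248 CPM at E11.5 against 315 to 429 CPM at E10.5), 10 of 15 neuronal markers were lower (300.5 to 468 CPM at E11.5 against 697 to 1309 CPM at E10.5), and 5 of 12 leukocyte markers were lower and 1 higher. On the higher side, 8 of 14 mesenchyme markers were higher and 3 lower, with a sum of 2473 to 2620 CPM at E11.5 against 1521 to 2053 CPM at E10.5, without overlap. Of 12 erythroid markers 4 were higher and none lower (5880 to 7412 CPM at E11.5 against 3653 to 4189 CPM at E10.5), and of 12 surface epithelium markers 4 were higher and 3 lower. Lists on the lower side then rose. At E12.5 against E11.5, 9 of 11 cartilage, 12 of 12 endothelial, 10 of 12 leukocyte and 6 of 15 neuronal markers were higher, with at most 1 lower in each list. At E14.5 against E12.5, 7 of 11 cartilage, 8 of 12 endothelial and 10 of 12 leukocyte markers were higher, with at most 1 lower in each. Mesenchyme markers had 4 higher and 6 lower at E12.5 against E11.5, and 2 higher and 8 lower at E14.5 against E12.5. At the same steps erythroid markers had 2 higher and 4 lower, then 2 higher and 5 lower. Surface epithelium markers had 4 higher and 2 lower, then 3 higher and 6 lower. At E14.5 against E12.5, where Nnat fell, 4 of 15 neuronal markers (26.7%) were lower and none higher, where 24.0% of all genes were lower, and their sum was 235 to 461 CPM at E14.5 against 229 to 539 CPM at E12.5. Markers of brain, eye and olfactory tissue, 11 tested of 14, had 8 higher and 1 lower at E12.5 than at E11.5, and 2 higher and 7 lower at E14.5 than at E12.5. Among all genes, 22.2% were lower at the first of these steps and 24.0% at the second. The brain, eye and olfactory markers summed to 95.8 to 102 CPM at E14.5, against 80.8 to 210.2 CPM at E12.5. Leukocyte markers were higher at E14.5 than E10.5 in 12 of 12, and erythroid markers lower in 7 of 12 and higher in 3. Among all genes, 36.6% were higher and 33.8% lower over this whole course. The mesenchyme markers that define the prominence were all tested, and over the whole course 10 of 14 were lower and 3 higher, summing to 1440 to 1510 CPM at E14.5 and 1521 to 2053 CPM at E10.5. The part of cell makeup in the course of any imprinted gene was not tested.

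The step to E12.5 coincided with the rise in alignments outside genes, which did not overlap between those stages. With that share as a covariate, 3 imprinted genes were higher at E12.5 than E11.5 and none lower, where 3.77% of all genes were called in either direction. Meg3, Dlk1 and Plagl1 were the 3. In that fit 3 were higher and 9 lower at E11.5 against E10.5, where 23.9% of all genes were called, and 15 were higher and 6 lower at E14.5 against E12.5, where 42.3% were called. Over the whole course 14 were higher and 7 lower, where 40.8% were called. The share and the stage cannot be told apart between E12.5 and E11.5 in these libraries.

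**Figure D5:**
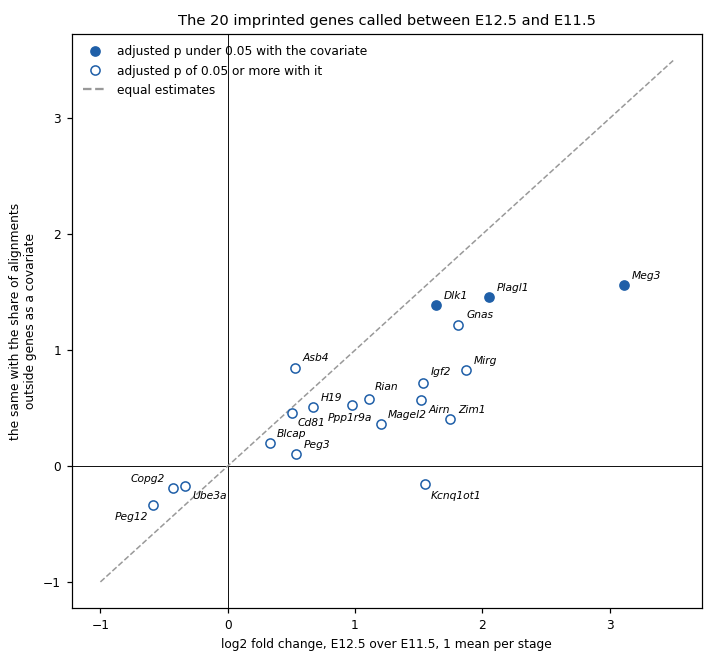
Log2 fold changes at E12.5 over E11.5 of the 20 imprinted genes called there, from the fit with 1 mean per stage (horizontal axis) and from the fit that adds the share of alignments outside genes (vertical axis). The dashed line marks equal estimates, and filled points keep an adjusted p under 0.05; Meg3, Dlk1 and Plagl1 are filled, and Kcnq1ot1 lies below 0 on the vertical axis.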

How the data were processed

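RNA of the maxillary prominence was sequenced in 12 libraries, 3 at each of 4 stages, grouped by the stage in their labels. Per the labels' protocols, RNA was extracted with Trizol and poly-T selected libraries were made with a kit that does not mark strand. The title of E14.5 replicate 1 names 2 parts, and it was used as 1 library. The values are raw counts of reads per gene as deposited by the authors. STAR 2.7.3a, HTSeq 0.12.4, FastQC and build mm10 are named in the submitters' processing notes, and how reads in shared exons were counted is not given in the sources used here. Of 53801 gene identifiers, 53620 matched GENCODE M21 symbols.

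Rows that name no gene held 14.3% to 18.6% of alignments and were left out. Counts were tested with edgeR 4.0.16 in R 4.3.3 (filterByExpr with a minimum count of 10, TMM scaling, quasi-likelihood fit, 8 residual degrees of freedom, Benjamini-Hochberg adjustment over 18365 genes). The biological coefficient of variation was 0.142. The procedure was tested on simulated counts. Alternatives were DESeq2 1.42.0, limma 3.58.1, other scalings and filters, a replicate block, a covariate for the share of alignments that no gene took, and each library left out. Count ratios of neighbours were put through a permutation test over the libraries. Its results are not given, since the pairs were chosen after the values were seen. Limits from a count of 0 cover counting error only.

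The 38 genes, the related lists and the markers were chosen with earlier results of these data known. Genes given in full were those with a mean of at least 100 CPM, and the 8 others with the largest changes. In each related list the 4 largest changes were named, and Cdkn1c, Dnmt1, Zfp57, Igf2bp1, Igf1r, Igf1 and the other genes of the Kcnq1 and Snrpn clusters were added after their values were seen.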

Additional observations from a re-analysis of the deposited data

How the results depend on the processing

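Of 84 calls of imprinted genes in the 4 comparisons, 65 kept direction and call in every alternative other than the covariate, and 55 kept them with the covariate. This covariate is the share of alignments that no gene took, and its effect rests mainly on E10.5 replicate 3. With it, 3 genes were higher and 0 lower at E12.5 than E11.5, and 7 were lower at E14.5 than E10.5. Kcnq1ot1 then turned to a log2 fold change of -0.15 at E12.5 over E11.5. Without scaling beyond the total count, 4 genes were lower at E14.5 than E10.5, and Copg2 turned to a log2 fold change of 0.041. That setting moved the median of all genes by construction, to 0.38 against 0.06 with TMM.

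Leaving out each library in turn gave 2 to 3 genes higher and 7 to 14 lower at E11.5 than E10.5, 16 to 19 higher and 3 to 4 lower at E12.5 than E11.5, 14 to 18 higher and 4 to 5 lower at E14.5 than E12.5, 18 to 20 higher and 10 to 11 lower at E14.5 than E10.5, and 31 to 34 in the joint test. Of the 84 calls, 73 held in all 12 refits. The cause of each lost call was not tested.

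Deviations of same-numbered replicates of consecutive stages correlated weakly (from -0.119 to 0.149), within the range of differently numbered ones (from -0.228 to 0.228). At E11.5 against E10.5, each replicate correlated most with its own number, at 0.015 to 0.0862. With 3 libraries a stage this cannot show whether the numbers pair the samples, and the main fit did not pair them. With a replicate block, 3 genes were higher and 10 lower at E11.5 than E10.5, 18 higher and 3 lower at E12.5 than E11.5, 16 higher and 5 lower at E14.5 than E12.5, and 19 higher and 10 lower at E14.5 than E10.5, with 33 in the joint test. Levels near or under 1 CPM, as for Ascl2 and Phlda2, limit what depth can show.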
